A study of Mus musculus with 4 samples.

Results

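The transcripts of 9 genes that read and relay the T cell receptor (TCR) signal were followed in sorted mouse thymocytes: the CD3 chain genes Cd3d, Cd3e, Cd3g and Cd247, the kinase genes Lck and Zap70, and the genes of the adaptors and scaffold Lat, Lcp2 and Themis. They were chosen by name, and each matched 1 of the 11536 genes of the authors' comparison table and 1 of the 43430 genes of the count table. The cells were double-positive (DP) thymocytes of C57BL/6 mice, which carry both CD4 and CD8 and were sorted by flow cytometry, and their RNA was sequenced. The 2 knockout (KO) mice had the genotype Uqcrfs1fl/fl; CD4-Cre+, in which Cre removes floxed Uqcrfs1, the gene of the Rieske protein of respiratory complex III, in cells that have switched on Cd4 regulatory sequences. The 2 control mice carry the genotype label WT, but the design text calls them heterozygous littermates, and no label states whether they had CD4-Cre. WT is therefore only the name of that group, and an effect of the transgene cannot be told apart from that of the deletion. No label states an age. Each group is 2 libraries, and the p-values set the change against the spread between libraries. For each gene that spread is estimated in part from all genes. It may be technical, since the labels do not tie each library to a mouse.

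The TCR alpha and beta chains bind antigen but have no signalling tail of their own. The CD3 gamma, delta, epsilon and zeta chains carry it, through paired tyrosines called ITAMs. Lck, held at the co-receptors CD4 and CD8, phosphorylates the ITAMs, Zap70 docks there and phosphorylates Lat and SLP-76 (the product of Lcp2), and these adaptors gather the enzymes that release calcium and activate Ras. In DP thymocytes this chain of events decides positive selection, including that of invariant natural killer T cells, and Themis, a thymocyte protein bound to Lat through Grb2, is required for it.

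Total gene counts ran from 30408863 to 34080516 per library. Uqcrfs1, on chromosome 13 from 30540308 to 30545362 (mm10), stood at 15.6 and 18.6 CPM in the KO libraries and at 61.4 and 57.2 CPM in the WT libraries, where CPM is the count divided by library depth in the usual unit, after trimmed-mean (TMM) scaling. Its log2 change of -1.80 (SE 0.09, adjusted p = 1.78e-04) is a level 3.48-fold lower in KO and goes with the genotype labels. The 8 markers of DP cells summed, scaled to library totals alone, to 17763 and 17664 CPM in KO and to 16909 and 18026 CPM in WT, with the recombinase gene Rag1 the highest at 6420 and 6594 CPM in KO and at 5474 and 6457 CPM in WT. No marker on the lists for other cells was at 0 in every library. The list for the earlier double-negative stage summed to 262 and 287 CPM in KO, above the 234 and 244 CPM of WT, with Notch3 at 82.5 and 98.4 CPM in KO against 65.8 and 65.0 CPM in WT. Their top gene Mgst2 had 142 and 123 CPM in KO and 140 and 148 CPM in WT. Sums for mature T cells were 379 and 395 CPM in KO and 371 and 379 CPM in WT, with 5 of 8 markers under 10 CPM everywhere. The B cell list gave 29.6 and 28.1 CPM in KO and 29.0 and 25.6 CPM in WT, almost all of it Cd79b, and 5 of its 7 markers were under 1 CPM in every library (Pax5 had 0 and 2 counts in KO and 0 and 1 in WT). The myeloid list gave 73.7 and 76.4 CPM in KO and 77.2 and 77.7 CPM in WT, mostly Cst3. KO replicate 2 stood apart in Lyz2 and Csf1r, 2 myeloid markers picked out after their values were seen. Lyz2 had 17 and 170 counts in KO and 16 and 7 in WT. Csf1r had 4 and 42 counts in KO and 5 and 4 in WT. The rest of the list was mixed, and Cst3 was lowest in KO replicate 2, at 50.8 CPM. WT replicate 1 was far from every other library over all genes, with a chi-square per degree of freedom of 9.005 to 12.1 against each, while the other pairs gave 4.82 to 7.74. Reads outside annotated exons made up 20.6% and 19.9% of uniquely aligned reads in KO and 17.2% and 18.6% in WT. The part of these differences in the values below was not tested. In bulk RNA, fewer cells of a type and less RNA per cell cannot be told apart.

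None of the 9 genes passed the test. The log2 changes ran from -0.12 for Cd3g to 0.08 for Themis, with adjusted p values from 0.553 to 0.990 in edgeR's quasi-likelihood test with Benjamini-Hochberg adjustment over 13281 genes. Across all tested genes 3 passed, which is 0.0226% (0.0151% lower and 0.00753% higher in KO). At an unadjusted p under 0.05 stood 3 members (Cd3d, Cd3e and Cd3g), against 8.40% of all tested genes. That count was 0 without KO replicate 1, 0 without KO replicate 2, 4 without WT replicate 2, where Themis joined, and 1 with the replicate number as a block. The number of members called was 0 with DESeq2, with edgeR's exact and likelihood ratio tests, and with any 1 library left out. The genes are among the most abundant of these cells, with 7768 to 91636 counts per library, and their standard errors of 0.044 to 0.056 are below the median of 0.086 over all tested genes. The 95% intervals of the 9 changes, as percentages of the WT level, lay between -14.2% for Cd3g and 15.5% for Themis. For 5 members both KO libraries were below both WT libraries and for 0 they were above, where 20.1% of all tested genes were below and 20.4% above (40.5% in either direction). Among the 1141 genes at 200 CPM or more, 18.1% were below and 26.4% above.

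The chains of the CD3 complex held the lowest changes of the set. Cd3g (ENSMUSG00000002033), which encodes CD3 gamma, was at 481 and 496 CPM in KO and at 529 and 531 CPM in WT. The group means were 488 ± 10.99 and 530 ± 2.02 CPM in KO and WT (SD, n = 2 each), a log2 change of -0.12 (SE 0.05, 95% interval -0.22 to -0.01, adjusted p = 0.553). The groups did not overlap, and the change of -7.84% in KO does not pass over all genes tested. Cd3d (ENSMUSG00000032094), the gene of CD3 delta, was at 428 and 413 CPM in KO and at 454 and 456 CPM in WT (log2 change -0.11, SE 0.05, adjusted p = 0.567). Both KO values lay below both WT values, by more than the WT libraries differed from each other. Cd3e (ENSMUSG00000032093), the gene of CD3 epsilon, the chain shared by both heterodimers of the complex, was at 562 and 548 CPM in KO and at 591 and 610 CPM in WT (log2 change -0.11, SE 0.05, adjusted p = 0.571). The 3 changes are alike in size, and their order is within their errors.

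Cd247 (ENSMUSG00000005763) encodes the zeta chain, which forms a disulfide-linked homodimer with several ITAMs per chain and is made from another locus. It was at 578 and 584 CPM in KO and at 604 and 616 CPM in WT, so the groups again did not overlap. Its log2 change of -0.07 (SE 0.05, 95% interval -0.17 to 0.03, adjusted p = 0.687) is smaller than those of the other chains, with an interval that includes them. Of the bases in annotated Cd247 exons, 56.4% also lie in exons of Pou2f1 on the opposite strand, a transcription factor gene at 96.3 and 103 CPM in KO and 88.7 and 89.5 CPM in WT (log2 change 0.16, SE 0.06, adjusted p = 0.528). The strand setting of the counting is not given, so the Cd247 count is uncertain.

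**Figure D1:**
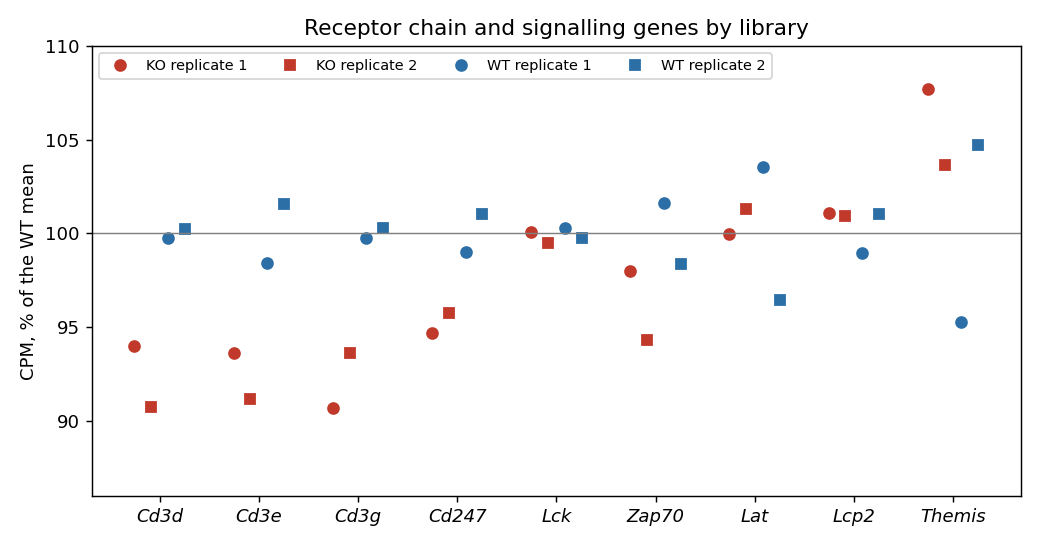
Level of each gene in each library as a percentage of the mean of the WT libraries (vertical axis, from CPM), with KO replicates in red and WT replicates in blue. The KO points of Cd3d, Cd3e, Cd3g, Cd247 and Zap70 lie below both WT points, and those of Lck, Lat, Lcp2 and Themis overlap with WT.

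Proportions between chains, which no library scaling can move, differed little between the group means. There were 0.890 and 0.833 Cd3d reads per Cd3g read in KO and 0.859 and 0.859 in WT. For Cd3e per Cd3g the ratios were 1.17 and 1.10 in KO and 1.12 and 1.15 in WT. In both pairs the KO libraries span the WT values and differ from each other by more than the group means do. Cd247 reads per read of the other 3 chains were 0.393 and 0.401 in KO and 0.384 and 0.386 in WT, a ratio of means of 1.03 with no overlap between groups. Per length of annotated exons, Cd3d made up 37.5% and 36.5% of the summed level of the 4 chains in KO and 37.3% and 37.0% in WT. Cd247 made up 17.2% and 17.6% in KO and 16.9% and 17.03% in WT. The shares of Cd3d, Cd3e and Cd3g overlapped between the groups.

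Cd3g, Cd3d and Cd3e sit together in 40056 bases of chromosome 9, from 44969572 to 45009627 in mm10. Cd3g on the minus strand and Cd3d on the plus strand start 1355 bases apart and point away from each other, and Cd3e follows on the minus strand. Cd247 lies on chromosome 1 from 165788681 to 165877277, on the plus strand. Because the cluster genes and Cd247 are set side by side above, the 250 bases before the RefSeq start of each (GRCm38.p6) are shown, 5′ to 3′ on the gene's strand. Capitals mark AGGAAG or CTTCCT (an ETS-type motif), CAGGTG or CACCTG (an E-box of the type E proteins bind) and TGTGGT or ACCACA (a RUNX-type motif), searched on both strands.
Cd3g (chr9:44980432-44980681, minus strand): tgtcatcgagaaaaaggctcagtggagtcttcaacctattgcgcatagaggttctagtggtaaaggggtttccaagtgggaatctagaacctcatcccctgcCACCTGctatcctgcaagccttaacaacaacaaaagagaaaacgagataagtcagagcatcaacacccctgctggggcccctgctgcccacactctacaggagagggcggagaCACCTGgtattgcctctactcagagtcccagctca
Cd3d (chr9:44981536-44981785, plus strand): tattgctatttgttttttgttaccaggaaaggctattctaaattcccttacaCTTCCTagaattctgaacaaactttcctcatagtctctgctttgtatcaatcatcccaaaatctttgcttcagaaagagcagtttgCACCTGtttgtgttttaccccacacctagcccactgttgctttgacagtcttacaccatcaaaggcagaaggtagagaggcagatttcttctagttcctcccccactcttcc
Cd3e (chr9:45009612-45009861, minus strand): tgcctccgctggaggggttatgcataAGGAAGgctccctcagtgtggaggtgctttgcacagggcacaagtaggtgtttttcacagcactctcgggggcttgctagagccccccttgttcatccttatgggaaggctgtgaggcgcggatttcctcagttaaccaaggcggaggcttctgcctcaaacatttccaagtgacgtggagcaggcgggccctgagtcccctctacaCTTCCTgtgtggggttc
Cd247 (chr1:165788431-165788680, plus strand): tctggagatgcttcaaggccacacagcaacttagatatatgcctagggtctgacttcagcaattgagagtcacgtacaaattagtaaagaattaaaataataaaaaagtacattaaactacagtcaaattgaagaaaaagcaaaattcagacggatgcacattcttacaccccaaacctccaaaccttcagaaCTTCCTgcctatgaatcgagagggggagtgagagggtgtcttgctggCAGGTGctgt
The Cd3g window holds 2 E-box matches and no ETS match, that of Cd3d 1 of each, that of Cd3e 2 ETS matches and no E-box, and that of Cd247 1 of each. None of the 4 holds the RUNX letters. Of 32851 promoter windows of the same length, 29.5% hold the ETS letters, 17.2% the E-box letters and 14.05% the RUNX letters. No motif match overlapped another in these 4 windows. The matches are letters in a window and not known binding sites.

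Around the cluster, within 250 kb on either side, 14 other genes were tested, 9 with a log2 change above 0 and 5 below, at a median of 0.05. None had both KO libraries below both WT libraries, and 3 had both above. Among all tested genes these shares were 20.1% and 20.4%. Those 3 neighbours had few counts: Phldb1 had 28 and 22 in KO and 17 and 20 in WT. Mpzl2 had 55 and 84 counts in KO and 24 and 48 in WT. BC049352 had 47 and 53 counts in KO and 31 and 35 in WT. This window was chosen after the values of the cluster were seen. Ube4a, whose gene lies next to Cd3g, was at 170 and 172 CPM in KO and 160 and 171 CPM in WT, and Kmt2a, a histone methyltransferase gene further out, at 452 and 501 CPM in KO and 409 and 454 CPM in WT.

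The kinases differed from each other in level, and neither passed the test between genotypes. Lck (ENSMUSG00000000409, chromosome 4 from 129548344 to 129573641) was at 2688 and 2672 CPM in KO and at 2694 and 2680 CPM in WT. The libraries of the groups are interleaved, and Lck ranked 9 in abundance among the 43430 genes. Its log2 change was -0.003 (SE 0.04, adjusted p = 0.990) and a 95% interval from -0.10 to 0.10. Zap70 (ENSMUSG00000026117, chromosome 1 from 36761798 to 36782818) was at 255 and 245 CPM in KO and at 264 and 256 CPM in WT, a log2 change of -0.06 (SE 0.05, 95% interval -0.17 to 0.05, adjusted p = 0.764). The groups did not overlap, but KO replicate 1 and WT replicate 2 were at nearly the same value. Each library held 10.5 and 10.9 Lck reads per Zap70 read in KO and 10.2 and 10.5 in WT.

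Lat and Lcp2 encode the membrane adaptor and the cytosolic adaptor on which the downstream enzymes assemble. Lat (ENSMUSG00000030742, chromosome 7 from 126363824 to 126369570) was at 1127 and 1142 CPM in KO and at 1167 and 1087 CPM in WT. The WT libraries enclose the KO libraries, and the log2 change was 0.01 (SE 0.05, 95% interval -0.11 to 0.12, adjusted p = 0.970). Lcp2 (ENSMUSG00000002699, chromosome 11 from 34046920 to 34092295) was at 402 and 401 CPM in KO and at 393 and 401 CPM in WT (log2 change 0.01, SE 0.05, 95% interval -0.09 to 0.12, adjusted p = 0.945). The KO libraries almost coincide, with WT replicate 2 between them.

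Themis (ENSMUSG00000049109, chromosome 10 from 28668360 to 28883818) had the highest change of the set and the widest error. It was at 874 and 841 CPM in KO and at 773 and 850 CPM in WT, means of 857 ± 23.3 and 811 ± 54.0 CPM (SD, n = 2 each). The log2 change was 0.08 (SE 0.06, 95% interval -0.05 to 0.21, adjusted p = 0.709). Only WT replicate 1 stood below the rest, and without it the log2 change was 0.01, against 0.14 without WT replicate 2. Of its exonic bases 1.31% are shared with 4930519F09Rik, a transcribed pseudogene on the opposite strand, which was at 2.93 and 2.49 CPM in KO and at 0.853 and 0.527 CPM in WT. That is 100 and 79 counts in KO and 28 and 16 counts in WT, a level 3.90-fold higher in KO (log2 change 1.96, SE 0.32, adjusted p = 0.185). The pseudogene did not pass the test, and it was picked out after its values were seen. With no strand setting stated, reads in the shared bases could belong to either gene.

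**Figure D2:**
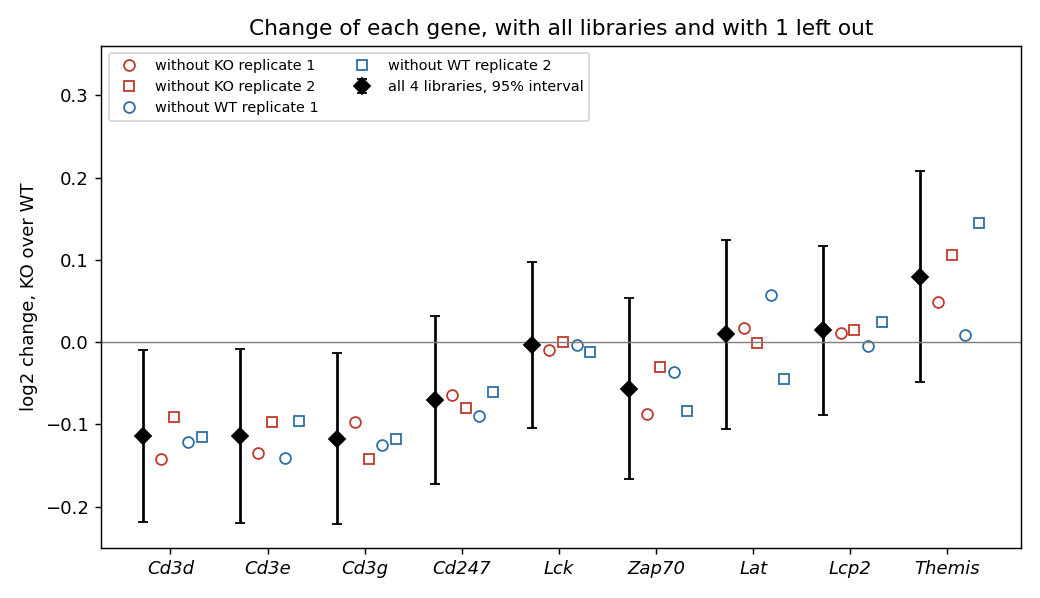
Log2 change in KO over WT for each gene (vertical axis): black diamonds are the fit to all 4 libraries with its 95% interval, and open symbols are fits with 1 library left out. Intervals of Cd3d, Cd3e and Cd3g end just below 0, and the left-out values of Lat and Lcp2 lie on both sides of 0.

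Ratios between layers of the pathway restate the same counts without library scaling, so they are no separate evidence. The TMM factors ran from 0.999 to 1.001, so scaling moved little. The summed reads of Cd3d, Cd3e and Cd3g came to 0.547 and 0.545 per Lck read in KO and to 0.584 and 0.596 in WT, so the ratio of means was 0.925 with no overlap. Themis reads per summed CD3 read were 0.594 and 0.577 in KO and 0.491 and 0.532 in WT. For Lat per Lcp2 the ratios were 2.81 and 2.85 in KO and 2.97 and 2.71 in WT, which overlap. With 2 libraries against 2 the exact two-sided permutation test cannot go below p = 0.333, and this smallest value was reached by 5 of the 9 ratios computed. It marks only groups that do not overlap, which held for the levels of 40.5% of all tested genes. The ratios share genes, so the 5 are not separate results.

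The levels of the genes, set side by side per kilobase, put the kinase Lck first whichever length was used. Per kilobase of annotated exons, Lck stood at 912 to 920 CPM per kb over the 4 libraries, Lat at 393 to 422 and Cd3d at 228 to 251. Cd3g at 147 to 163 and Cd3e at 134 to 150 overlapped in range, followed by Cd247 at 108 to 116. Lcp2 at 88.2 to 90.0 and Zap70 at 82.0 to 88.3 also overlapped, and Themis was lowest at 66.2 to 74.8. With the length of the principal transcript, the isoform that the annotation marks as the main one, the order below Lat changed. Cd3g then came after Lat at 470 to 519 CPM per kb, before Cd3e at 375 to 417, Cd247 at 354 to 378 and Cd3d at 256 to 282. Themis at 152 to 172 then stood above Zap70 at 109 to 118 and Lcp2 at 108 to 110. The order of the CD3 chains therefore depends on the length used.

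**Figure D3:**
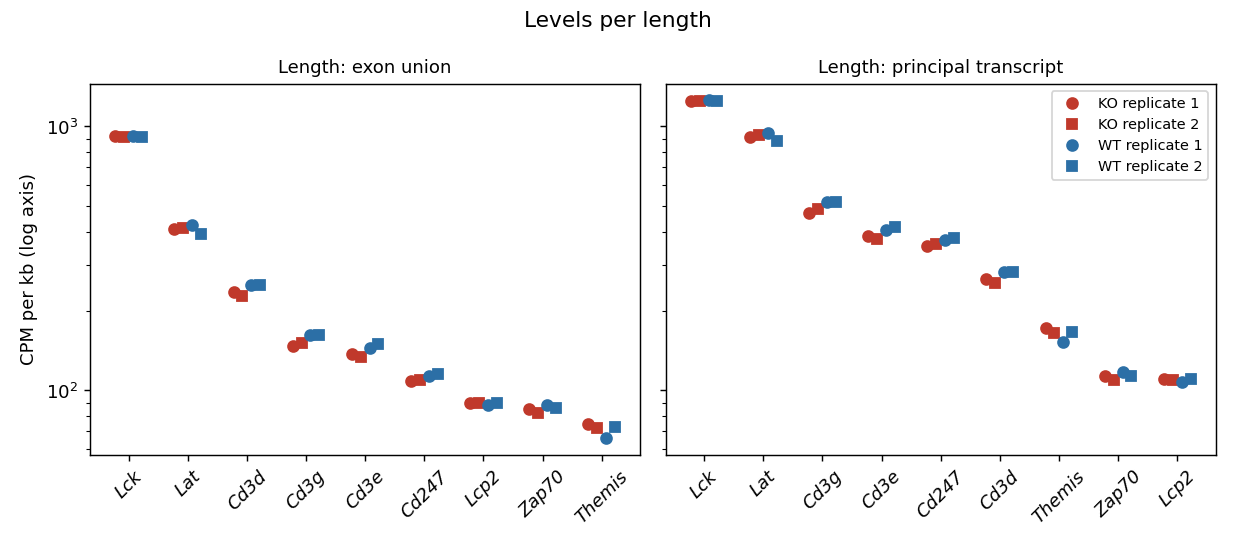
Level per kilobase of each gene in each library (log axis), with the length of all annotated exons on the left and that of the principal transcript on the right; genes run from high to low. Lck and Lat lead in both panels, and the order of the CD3 chains and of Themis, Zap70 and Lcp2 differs between them.

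Among abundant genes the change moved with transcript length. Among 1131 genes at 200 CPM or more with a principal transcript, the median log2 change was -0.06 for the 202 under 2000 bases, with 82.7% of them lower in KO. It was -0.01 for the 412 genes from 2000 to 4000 bases and 0.04 for the 517 genes of 4000 bases or more, of which 25.5% were lower. The 3 medians kept this order with any 1 library left out, but WT libraries moved their size. With WT replicate 1 left out the median of the shortest class was -0.02 and that of the longest 0.02, and with WT replicate 2 left out they were -0.10 and 0.06. All 4 CD3 chains have principal transcripts under 2000 bases, from 1023 for Cd3g to 1632 for Cd247, and Themis has one of 5082. Set against their length class, Cd3g, Cd3d and Cd3e differed from the class median by -0.06 each on the log2 scale, with 17.3%, 18.8% and 19.3% of the class lower still. These differences rest on single libraries. Without WT replicate 1 they were -0.105, -0.101 and -0.120 for Cd3g, Cd3d and Cd3e, and without WT replicate 2 they were -0.015, -0.013 and 0.007. Leaving out a KO library gave -0.080 to -0.027 for the 3 genes. Cd247 differed from the class median by -0.01, with 40.6% of the class lower, and by -0.069 without WT replicate 1 and 0.043 without WT replicate 2. Lat, with a principal transcript of 1235 bases, stood 0.07 above the median of that class, and Themis 0.04 above that of its own (-0.006 to 0.085 with 1 library left out). Zap70, at 2245 bases, differed from the median of its class by -0.05 (-0.083 to -0.024 with 1 library left out). Length classes were chosen after the values were seen, and the part of length in the members' values was not tested.

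**Figure D4:**
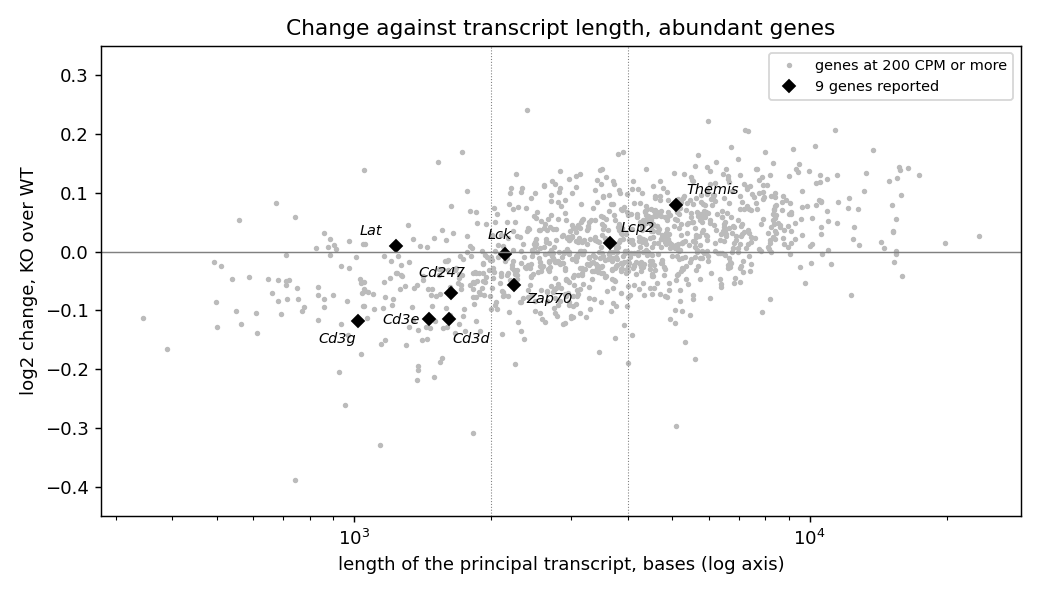
Log2 change in KO over WT (vertical axis) against the length of the principal transcript in bases (log axis) for 1131 genes at 200 CPM or more in grey and the 9 genes reported as black diamonds; dotted lines mark 2000 and 4000 bases. Short transcripts lie mostly below 0 and long ones mostly above, and the CD3 chains lie among the short ones.

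The rest of the pathway was read from 5 lists of 59 genes by role, of which 58 had enough counts to be tested (Rnf128 had not). None of the 58 passed the test in either direction. Of these, 31 had lower and 27 higher values in KO, at a median log2 change of -0.01, while the median over all 13281 genes was 0.00. Both KO libraries were below both WT libraries for 16 genes and above for 19. Among all tested genes these shares were 20.1% and 20.4%, and no test of the difference was made.

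Of the 9 receptor and co-receptor genes 6 were lower and 3 higher, at a median of -0.02. Trbc2, a constant segment of the TCR beta chain, was at 2092 and 2077 CPM in KO and at 2274 and 2212 CPM in WT (log2 change -0.11, SE 0.05, adjusted p = 0.581). Trbc2 is nearly identical to Trbc1, so the counts of both are uncertain. The co-receptor gene Cd8a was at 3002 and 2953 CPM in KO and at 3174 and 3225 CPM in WT (log2 change -0.10, SE 0.05, adjusted p = 0.589). Neither pair of groups overlapped. Of the 5 other kinases 2 were lower and 3 higher (median 0.05). Fyn, the second Src-family kinase of thymocytes, was at 162 and 177 CPM in KO and at 154 and 158 CPM in WT, and Tec at 54.5 and 51.4 CPM in KO and 54.3 and 59.8 CPM in WT. The KO libraries lay above WT for Fyn and overlapped with WT for Tec.

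The other adaptors split evenly, with 9 of 18 lower and a median of 0.02. Nck2, an adaptor that binds a proline-rich stretch of CD3 epsilon, was at 124 and 127 CPM in KO and at 142 and 141 CPM in WT (log2 change -0.17, SE 0.05, adjusted p = 0.487). Sit1, a transmembrane adaptor that dampens TCR signalling, was at 101 and 102 CPM in KO and at 112 and 112 CPM in WT (log2 change -0.14, SE 0.05, adjusted p = 0.546). In both genes the KO libraries lay below WT by several times the gap between replicates. They were named for the smallest p values of their list, a choice that favours such a gap. Of the 11 effector genes 8 were higher and 3 lower, at a median of 0.05. Dgka, a diacylglycerol kinase that limits Ras activation, was at 1008 and 1017 CPM in KO and at 899 and 941 CPM in WT (log2 change 0.14, SE 0.05, adjusted p = 0.528), and Sos1, a Ras exchange factor, at 64.6 and 65.9 CPM in KO and 56.8 and 59.9 CPM in WT (adjusted p = 0.546). Of the 15 tested negative regulators 11 were lower and 4 higher (median -0.02). The list also held the smallest p: Pag1, the membrane anchor of the Lck inhibitor Csk, was at 407 and 424 CPM in KO and at 339 and 372 CPM in WT (log2 change 0.22, SE 0.06, adjusted p = 0.443). Cd6, a surface receptor that binds SLP-76, was at 393 and 385 CPM in KO and at 420 and 421 CPM in WT (log2 change -0.11, SE 0.05, adjusted p = 0.571).

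**Figure D5:**
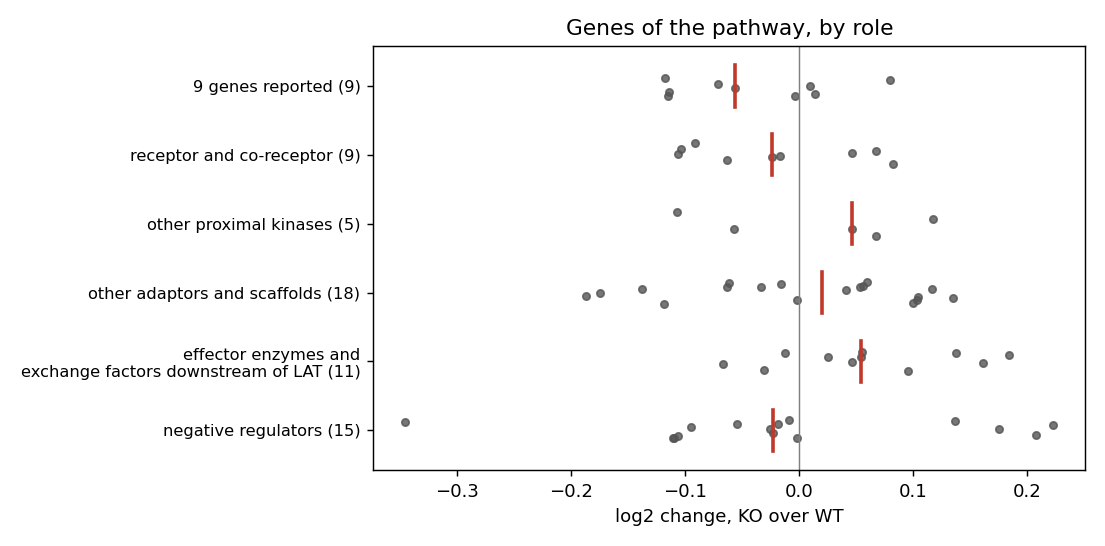
Log2 change in KO over WT (horizontal axis) of the 9 genes reported and of the tested genes of 5 role lists (rows, with the number of genes in brackets); each point is a gene and the red bar is the median of its row. Medians run from -0.06 for the 9 genes to 0.05 for the effector enzymes, and no gene passed the test.

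The genes whose pattern over the 4 libraries was nearest to the mean of the CD3 chains were Pcyt2, a phosphatidylethanolamine synthesis enzyme gene, Tnfrsf1a, a tumour necrosis factor receptor gene, and Vps8, a vesicle tethering gene. Nearness was the distance between centred log2 CPM values over 4 libraries, among genes with a mean of at least 10 CPM, and came to 0.010 for each. Pcyt2 was at 78.4 and 78.0 CPM in KO and at 84.0 and 84.7 CPM in WT. That its KO libraries lay below WT by a small step follows from its choice by nearness. With 4 points many genes can lie this near.

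In the authors' deposited table the log2 fold changes were -0.12 for Cd3d, Cd3e and Cd3g, -0.07 for Cd247, -0.06 for Zap70 and 0.08 for Themis, with adjusted p values from 0.584 for Cd3g to 0.996 for Lck.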

How the data were processed

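RNA from 4 libraries of sorted DP thymocytes (2 KO, 2 WT, grouped and numbered by sample title) was prepared with a TruSeq kit (per the labels' protocols). The tools named are Trimmomatic 0.33, STAR 2.5.2 (alignment to mm10) and HTSeq (read counting), per the submitters' processing notes and design text. No source used here states the counting mode, the strand setting or the annotation release. The deposited values are raw counts per gene, and the deposited library files and series table differed in 0 values. The authors' deposited table holds CPM, log2 fold changes and mean log2 CPM, a likelihood ratio score, and p-values and adjusted p-values from edgeR by the authors. HTSeq lines that name no gene (reads outside exons, 17.2% to 20.6%; ambiguous reads, 0.865% to 0.891% of uniquely aligned reads) were left out. Coordinates and lengths come from an mm10 annotation (GENCODE M21), which may not be the release counted on; promoters are from RefSeq (GRCm38.p6), in which all 9 members matched, and protein sequences were not used here.

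Counts were tested with edgeR 4.0.16 (R 4.3.3): genes kept by filterByExpr at a minimum count of 10 and total of 15, TMM scaling, and the robust quasi-likelihood F test with group as the only term, and adjusted p under 0.05. Alternatives were DESeq2 1.42.0, other edgeR tests, scalings and filters, the replicate number as a block, and leaving out each library. Standard errors are the log2 change over the square root of F, and 95% intervals use the test's degrees of freedom. The prior from all genes had a median of 6.78 degrees of freedom, so a gene's standard error is not its own spread alone. The fit was tested on simulated data. Depth was 30408863 to 34080516 gene counts per library. No pair of libraries agreed within sampling noise (chi-square per degree of freedom 4.82 for KO, 9.005 for WT and 5.46 to 12.1 between groups). Named genes are the members, Uqcrfs1 and the 3 nearest in pattern. From each role list come the 2 with the smallest p and any that passed. From each marker list come the most abundant gene and the one with the largest CPM difference between libraries. Outside this rule, genes sharing exons with or lying near members (Pou2f1, 4930519F09Rik, Ube4a, Kmt2a, Phldb1, Mpzl2, BC049352) were named after their values were seen. So were the markers Pax5, Lyz2 and Csf1r. One gene that the rule names is not reported here. The members and lists were chosen with earlier results of these data known.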

Additional observations from a re-analysis of the deposited data

How the results depend on the processing

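In each of the alternative fits run, 0 of the 9 members were called, and the log2 changes of Cd3d, Cd3e, Cd3g, Cd247, Lck, Zap70 and Themis kept their sign. Leaving out 1 library moved them within -0.14 to -0.09 for Cd3d, -0.14 to -0.10 for Cd3e and Cd3g, -0.09 to -0.06 for Cd247, -0.09 to -0.03 for Zap70 and 0.01 to 0.14 for Themis (lowest adjusted p 0.111). In those fits the lone library of a group takes its spread from the other group. Lat turned to -0.045 without WT replicate 2 and to -0.0015 without KO replicate 2 (range -0.045 to 0.057), and Lcp2 to -0.0045 without WT replicate 1 (range -0.0045 to 0.025). The count of called genes, 3 in the reported fit, was 191 with no filter on low counts, 24 with DESeq2, 81 with the exact test, 101 with the likelihood ratio test and 41 to 365 with 1 library left out (365 without WT replicate 2); the cause was not tested. The fit with a replicate block gave 27 calls, again with 0 members called. The difference of replicate 1 from replicate 2 within KO correlated at 0.091 across genes with the same difference within WT. The labels give no pairing. Medians with 1 library left out were -0.065 to -0.030 for the members, -0.090 to 0.0039 for receptor genes, 0.0025 to 0.066 for other kinases, -0.001 to 0.02 for other adaptors, 0.022 to 0.067 for effectors and -0.052 to -0.0087 for negative regulators. Over the 4 libraries the mean shares of Cd3d, Cd3e, Cd3g and Cd247 among the CD3 chains were 37.1%, 21.8%, 23.9% and 17.2% per exon length. Without length correction they were 20.6%, 27.3%, 24.0% and 28.1%, and with the principal transcript, added after seeing the data, 17.7%, 25.9%, 32.6% and 23.9%, since the lengths differ. With 2 libraries a group, the 95% intervals of 6 of the 9 members include 0.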
